A study of Homo sapiens with 9 samples.

Results

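The enzymes of the methionine cycle and of one-carbon metabolism were followed across 3 states of the human fibrosarcoma line HT1080. The members were named as genes: MAT2A, MAT2B, AHCY, AHCYL1, MTR, CBS, SHMT2, MTHFD1, MTHFD1L and MTHFD2, 10 in all. A probe set counted for a member where the platform annotation gave that symbol alone and the deposited table held values for it. By this rule 17 of the members' 23 annotated probe sets, covering 9 of the 10 genes, had values, out of 17466 probe sets tested in all. MTHFD1L had no value under its own symbol alone. Its 2 probe sets with values carried several symbols and were left out, so its level is not described. Affymetrix U133 Plus 2 arrays were hybridised with RNA of MTAP+ HT1080 cells given 10 µM MT-DADMe-ImmA for 48 hours, of untreated MTAP+ cells and of MTAP- cells, with 3 biological replicates in each group and all cells kept in DMEM. MTAP is methylthioadenosine phosphorylase and MT-DADMe-ImmA is a transition state analogue that inhibits it. The sources used here do not say how the MTAP+ cells were made or whether they are 1 clone.

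In the methionine cycle, methionine adenosyltransferase turns methionine into S-adenosylmethionine (SAM), the methyl donor of most methyltransferases. The S-adenosylhomocysteine left after methyl transfer is split to homocysteine, which is either methylated again to methionine with a methyl group from folate or passed to cysteine by transsulfuration. The folate cycle supplies that methyl group and the carbon units for purines and thymidylate, largely from serine, and runs in parallel in mitochondria and cytosol. MTAP joins this network from the polyamine side, since it cleaves methylthioadenosine into adenine and a sugar phosphate from which methionine is rebuilt. All values below are log2 RMA levels of 1 probe set, so they compare arrays and not genes. Tests are limma's moderated fit over all 17466 probe sets and 9 arrays, with Benjamini-Hochberg adjustment within each comparison and a threshold of 0.05.

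The MTAP probe set 211363_s_at had 11.21, 11.30 and 11.10 in inhibitor-treated MTAP+ cells, 11.63, 11.74 and 11.37 in MTAP+ cells and 4.41, 4.25 and 5.02 in MTAP- cells, as the labels have it. Array medians lay between 8.24 and 8.38. Every gene of the blood, liver and neural marker lists was without values. Of the 8 mesenchymal markers 5 had values, among them VIM. Between MTAP+ and MTAP- cells 2 of these passed, FN1 and COL6A1, both higher in MTAP+ cells, and 3 did not. Among all genes 9.84 percent were higher there. None of the 5 passed in inhibitor-treated against MTAP+ cells. Of the 5 epithelial markers KRT8 and KRT18 had values while EPCAM, CDH1 and KRT19 had none. The difference between the ACTB 5′ and 3′ probe sets, a sign of RNA quality, was -1.93, -0.88 and -2.09 in inhibitor-treated cells, -1.33, -1.03 and -1.92 in MTAP+ cells and -1.81, -2.17 and -3.52 in MTAP- cells. The last MTAP- array was the lowest of all. In bulk RNA, fewer cells of a type and less RNA per cell cannot be told apart.

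Inhibitor treatment of MTAP+ cells raised 3 of the 9 measured enzymes and lowered none: CBS, the entry enzyme of transsulfuration, and SHMT2 and MTHFD2, a pair of mitochondrial folate enzymes. Among all genes, 10.6 percent passed the same test, 4.63 percent of all genes higher and 5.95 percent lower. Levels did not overlap between the 2 groups for 6 of the 9 enzymes, against 34.8 percent of all genes. Over probe sets 1805 passed (10.3 percent), and 2726 with the replicate number as a block, which left the count of enzymes at 3. Without inhibitor-treated replicate 3 only CBS passed, 1 of 9. In MTAP+ against MTAP- cells only CBS passed, 1 of 9, where 15.1 percent of all genes did (9.84 percent higher and 5.31 percent lower), so that count was near the background. Levels did not overlap there for 4 of 9, against 34.8 percent of all genes, and 14.8 percent of probe sets passed. In inhibitor-treated MTAP+ against MTAP- cells 4 of 9 passed, with CBS, SHMT2 and AHCYL1 higher and MTHFD1 lower, against 32.2 percent of all genes (17.3 percent higher and 14.9 percent lower) and 30.7 percent of probe sets. Levels did not overlap for 8 of 9, against 52.7 percent of all genes. That count of 4 went to 2 without inhibitor-treated replicate 2, MTAP- replicate 1 or MTAP- replicate 3. The median change of the 9 enzymes was 0.13 for inhibitor-treated against MTAP+ cells, 0.08 for MTAP+ against MTAP- cells and 0.19 for inhibitor-treated against MTAP- cells. Over all genes these medians were -0.02, 0.02 and 0.00. The comparisons share arrays and are not independent of each other.

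**Figure D1:**
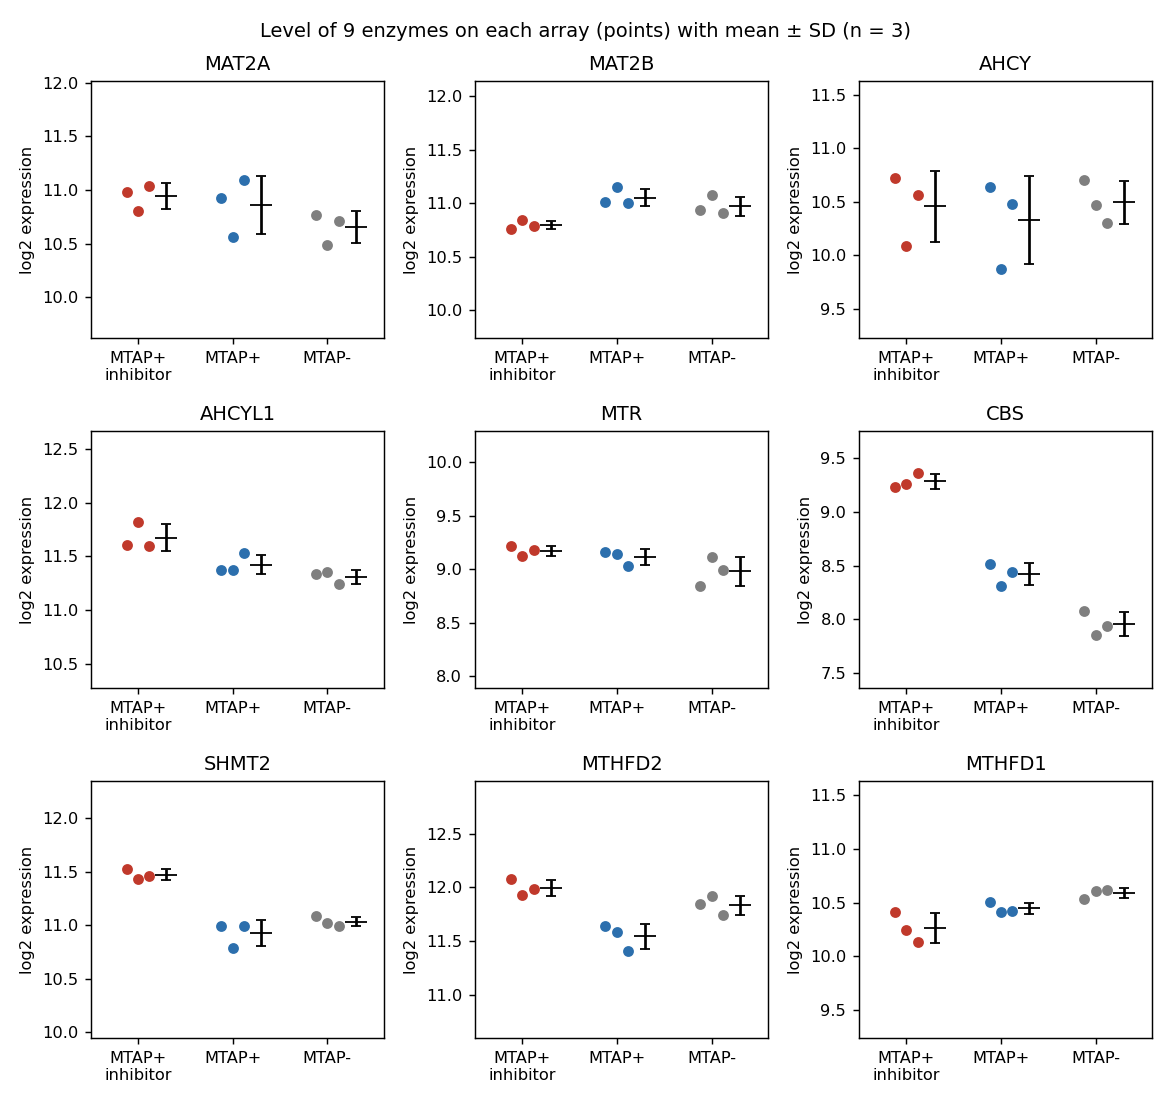
Log2 level of the probe set with the highest mean of each of the 9 enzymes, 1 point per array with the mean ± SD of each group (n = 3), and inhibitor-treated MTAP+ cells left, MTAP+ cells in the middle and MTAP- cells right. The CBS groups do not overlap, with means of 9.29 in inhibitor-treated, 8.42 in MTAP+ and 7.96 in MTAP- cells, while AHCY overlaps in all of them.

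CBS, cystathionine beta-synthase, joins homocysteine to serine. It differed in all 3 comparisons and was the only enzyme of the 9 that did. Its probe set 1553972_a_at had 9.24, 9.26 and 9.37 in inhibitor-treated MTAP+ cells, 8.51, 8.31 and 8.44 in MTAP+ cells and 8.08, 7.85 and 7.94 in MTAP- cells. No 2 groups overlapped. Inhibitor-treated cells were 0.87 ± 0.10 higher than MTAP+ cells (log2 change ± SE, n = 3 each; limma, adjusted p = 0.00248), which is 1.82-fold. Against MTAP- cells they were 1.33 ± 0.10 higher, or 2.52-fold (limma, adjusted p = 6.56e-05). MTAP+ cells were 0.47 ± 0.10 higher than MTAP- cells, or 1.38-fold (limma, adjusted p = 0.0176). The second CBS probe set, 212816_s_at, had 8.70, 8.97 and 8.89 in inhibitor-treated cells, 8.06, 7.78 and 7.98 in MTAP+ cells and 7.43, 7.43 and 7.16 in MTAP- cells. It showed the same order, with changes of 0.91 ± 0.13 for inhibitor-treated against MTAP+ cells (limma, adjusted p = 0.00396), 1.52 ± 0.13 against MTAP- cells (8.78e-05) and 0.60 ± 0.13 for MTAP+ against MTAP- cells (0.0132). Both inhibitor comparisons of 1553972_a_at passed in all 19 alternatives. Its MTAP+ against MTAP- call was lost in 6 of them: with the 2 groups alone (0.0599), with the ACTB difference as a covariate (0.0982), without MTAP+ replicate 1 (0.055) or 3 (0.052) and without MTAP- replicate 2 (0.0553) or 3 (0.0557). That of 212816_s_at was lost only with the ACTB covariate (0.122).

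CBS is on chromosome 21, and the RefSeq table gives CBSL as a synonym. Whether the CBS probe sets also read signal under that name was not tested. The 250 bases of its first RefSeq promoter window, upstream of the transcript start, are shown because CBS was the enzyme with the largest change.
CBS (GRCh38.p14, chr21:43076378-43076627, minus strand, 5′ to 3′): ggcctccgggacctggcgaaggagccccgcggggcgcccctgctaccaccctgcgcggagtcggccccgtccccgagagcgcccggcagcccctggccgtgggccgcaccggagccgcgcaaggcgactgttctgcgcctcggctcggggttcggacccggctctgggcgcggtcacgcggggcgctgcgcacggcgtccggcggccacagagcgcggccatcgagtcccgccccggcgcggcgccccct
The stretch is 80.8 percent G and C. It was searched on both strands for CACGTG (an E-box), for TTTGGCGC or TTTCGCGC (E2F-type sites) and for TGATGNAAN (an ATF4 composite site). The 2 E2F-type strings differ in 1 letter. None of these was found in it or in the other 2 CBS windows. Of 35116 RefSeq promoter windows of this length, 6.34 percent hold the first, 0.968 percent the E2F-type letters and 3.13 percent the last. Among the matched members TGATGNAAN was found only in MTHFD1L, whose level is not described. Its windows 2 and 3, which overlap, each held 1 such motif and 1 CACGTG.

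The 2 mitochondrial folate enzymes were higher in inhibitor-treated than in untreated MTAP+ cells and did not pass between MTAP+ and MTAP- cells. SHMT2, mitochondrial serine hydroxymethyltransferase, takes a carbon unit from serine. Its probe set 214096_s_at had 11.53, 11.43 and 11.46 in inhibitor-treated cells, 10.99, 10.78 and 10.99 in MTAP+ cells and 11.08, 11.02 and 10.99 in MTAP- cells. All inhibitor-treated arrays lay above the other 6. The change against MTAP+ cells was 0.55 ± 0.10, or 1.46-fold (limma, adjusted p = 0.0103), and against MTAP- cells 0.44 ± 0.10, or 1.36-fold (limma, adjusted p = 0.00869). MTAP+ against MTAP- cells gave -0.11 ± 0.10 (limma, adjusted p = 0.486). The other 2 SHMT2 probe sets rose as well in inhibitor-treated against MTAP+ cells. Probe set 214095_at had 9.32, 9.34 and 9.30 in inhibitor-treated cells, 8.95, 8.51 and 8.85 in MTAP+ cells and 8.96, 8.96 and 8.98 in MTAP- cells, a change of 0.55 ± 0.12 against MTAP+ (limma, adjusted p = 0.0214). Probe set 214437_s_at had 10.57, 10.75 and 10.63 in inhibitor-treated cells, 10.13, 10.07 and 9.97 in MTAP+ cells and 9.95, 9.90 and 9.59 in MTAP- cells, a change of 0.60 ± 0.12 against MTAP+ (limma, adjusted p = 0.0152). Against MTAP- cells these 2 gave 0.35 (adjusted p = 0.0505) and 0.84 (adjusted p = 9.99e-04), both by limma, so the size of that difference depended on the probe set. The call of 214096_s_at against MTAP+ cells was lost without inhibitor-treated replicate 3 (0.0518) and in no other alternative of 19. That of 214095_at was lost in 4 of 17, with the 2 groups alone (0.0538) and without inhibitor-treated replicate 1 (0.0668), 2 (0.0671) or 3 (0.0812), and that of 214437_s_at in 2 of 17, without inhibitor-treated replicate 2 (0.0574) or 3 (0.0645).

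MTHFD2 is the mitochondrial methylene-tetrahydrofolate dehydrogenase and cyclohydrolase, the step after SHMT2. Its probe set 201761_at had 12.08, 11.93 and 11.98 in inhibitor-treated cells, 11.64, 11.59 and 11.41 in MTAP+ cells and 11.84, 11.92 and 11.74 in MTAP- cells. MTAP+ cells were the lowest group, and no 2 groups overlapped. Inhibitor-treated cells were 0.45 ± 0.10 above MTAP+ cells, or 1.37-fold (limma, adjusted p = 0.0257). MTAP+ against MTAP- cells gave -0.29 ± 0.10 (limma, adjusted p = 0.0898) and inhibitor-treated against MTAP- cells 0.16 ± 0.10 (limma, adjusted p = 0.264), neither past the threshold. The call against MTAP+ cells was lost without inhibitor-treated replicate 1 (0.0923), 2 (0.0582) or 3 (0.0942), without MTAP+ replicate 3 (0.0618), with the 2 groups alone (0.0508) and with the mean of both MTHFD2 probe sets (change 0.30, adjusted p = 0.169). The second probe set, 234976_x_at, lay between 6.08 and 6.86 on all 9 arrays. That is near 6.64, the level that every deposited probe set reached on at least 3 arrays, and nothing passed for it.
The promoter of MTHFD2 is shown beside that of MTHFD1, its cytosolic counterpart, because MTHFD2 passed and MTHFD1 did not under the inhibitor, a difference that was not itself tested. Capitals mark CACGTG.
MTHFD2 (GRCh38.p14, chr2:74198365-74198614, plus strand, 5′ to 3′): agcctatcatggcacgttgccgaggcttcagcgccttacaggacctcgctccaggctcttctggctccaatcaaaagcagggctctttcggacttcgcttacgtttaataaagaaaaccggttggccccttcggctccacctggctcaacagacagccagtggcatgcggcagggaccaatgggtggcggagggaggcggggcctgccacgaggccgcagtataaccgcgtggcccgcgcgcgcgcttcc
MTHFD1 (GRCh38.p14, chr14:64388103-64388352, plus strand, 5′ to 3′): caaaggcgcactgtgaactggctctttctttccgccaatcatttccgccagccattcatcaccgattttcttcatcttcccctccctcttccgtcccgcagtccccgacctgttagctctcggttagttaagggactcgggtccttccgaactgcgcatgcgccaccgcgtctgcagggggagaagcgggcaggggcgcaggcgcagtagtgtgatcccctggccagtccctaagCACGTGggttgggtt
The MTHFD2 stretch held none of the searched motifs. The MTHFD1 stretch held 1 E-box, which begins 15 bases before the start. SHMT2 was not matched in the promoter table.

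MTHFD1 is the trifunctional cytosolic folate enzyme. Its probe set 202309_at had 10.41, 10.24 and 10.13 in inhibitor-treated cells, 10.50, 10.41 and 10.42 in MTAP+ cells and 10.53, 10.61 and 10.62 in MTAP- cells. The groups did not overlap, though inhibitor-treated and MTAP+ cells nearly touched, with inhibitor-treated cells lowest and MTAP- cells highest. Only inhibitor-treated against MTAP- cells passed, with a change of -0.33 ± 0.10, or 1.25-fold lower (limma, adjusted p = 0.0360). Against MTAP+ cells the change was -0.18 ± 0.10 (limma, adjusted p = 0.279), and MTAP+ against MTAP- cells gave -0.14 ± 0.10 (limma, adjusted p = 0.371). The call was lost in 7 of 19 alternatives, with the ACTB covariate and without inhibitor-treated replicate 2 or 3, MTAP+ replicate 3 or any 1 of the MTAP- replicates (adjusted p from 0.0505 to 0.137).
Within each array, SHMT2 minus MTHFD1 was 1.12, 1.19 and 1.33 in inhibitor-treated cells, 0.49, 0.37 and 0.57 in MTAP+ cells and 0.55, 0.41 and 0.38 in MTAP- cells. MTHFD2 minus MTHFD1 was 1.67, 1.68 and 1.85 in inhibitor-treated cells, 1.13, 1.17 and 0.99 in MTAP+ cells and 1.31, 1.31 and 1.12 in MTAP- cells. These differences between probe sets were chosen after their values were seen and serve only to compare arrays.

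**Figure D2:**
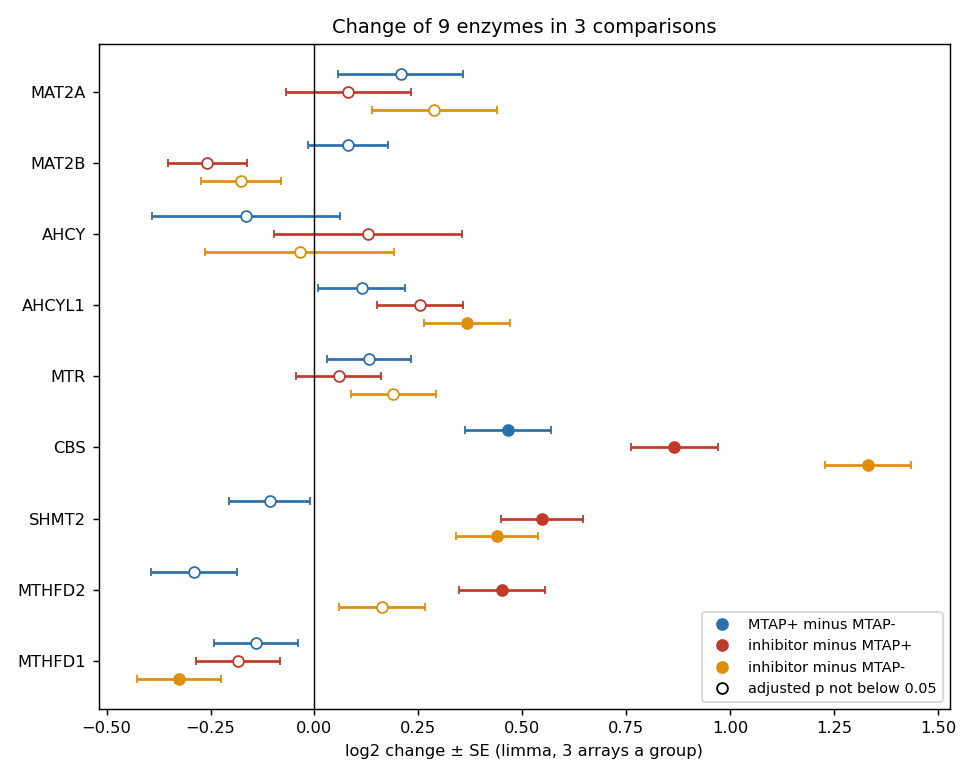
Log2 change of the 9 enzymes in each of the 3 comparisons, with bars for the SE from limma; the colours stand for MTAP+ minus MTAP- cells, inhibitor-treated minus MTAP+ cells and inhibitor-treated minus MTAP- cells, and open points did not pass. Under the inhibitor CBS changed by 0.87, SHMT2 by 0.55 and MTHFD2 by 0.45, while AHCY changed by 0.13 with the widest bar, an SE of 0.23.

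The 5 genes listed with the methionine cycle (MAT2A, MAT2B, AHCY, AHCYL1 and MTR) showed no change that passed limma's adjusted test under the inhibitor. An unadjusted p below 0.05 was found for 2 of these 5 genes. MAT2A, the catalytic subunit of methionine adenosyltransferase outside the liver, had 10.98, 10.80 and 11.04 on probe set 200768_s_at in inhibitor-treated cells, 10.93, 10.56 and 11.09 in MTAP+ cells and 10.77, 10.48 and 10.71 in MTAP- cells. Inhibitor-treated and MTAP+ cells overlapped, with a change of 0.08 ± 0.15 and a 95% interval from -0.26 to 0.42 (limma, adjusted p = 0.776). MTAP+ against MTAP- cells gave 0.21 ± 0.15 (limma, adjusted p = 0.378). Its second probe set, 200769_s_at, had 8.16, 8.72 and 7.93 in inhibitor-treated cells, 8.84, 8.67 and 8.49 in MTAP+ cells and 8.31, 8.11 and 8.30 in MTAP- cells. It pointed the other way under the inhibitor, at -0.40 ± 0.19 (limma, adjusted p = 0.215), so the 2 probe sets of MAT2A disagreed in sign and neither passed. Without inhibitor-treated replicate 2 the second one passed, at -0.62 (limma, adjusted p = 0.0477), and over all arrays left out in turn it lay between -0.62 and -0.23. MAT2B, the regulatory subunit, had 10.76, 10.84 and 10.79 in inhibitor-treated cells, 11.01, 11.15 and 11.00 in MTAP+ cells and 10.94, 11.07 and 10.91 in MTAP- cells. Inhibitor-treated arrays lay below all others, yet the change against MTAP+ cells, -0.26 ± 0.10, did not pass (limma, adjusted p = 0.118).

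AHCY, the hydrolase that splits S-adenosylhomocysteine, had 10.72, 10.08 and 10.57 in inhibitor-treated cells, 10.64, 9.87 and 10.48 in MTAP+ cells and 10.71, 10.47 and 10.30 in MTAP- cells. The groups overlapped throughout, and replicate 2 was the lowest array of both MTAP+ groups. The change under the inhibitor was 0.13 ± 0.23, with a 95% interval from -0.38 to 0.64 (limma, adjusted p = 0.766), which is wide beside those of the other enzymes. AHCYL1 is an AHCY-like protein known as a regulator of the inositol trisphosphate receptor, and it is counted among the enzymes here as a listed member. Its probe set 200850_s_at had 11.61, 11.82 and 11.60 in inhibitor-treated cells, 11.37, 11.37 and 11.53 in MTAP+ cells and 11.33, 11.36 and 11.24 in MTAP- cells. Inhibitor-treated cells were above both other groups on every array. The change was 0.37 ± 0.10 against MTAP- cells, or 1.29-fold (limma, adjusted p = 0.0249), and 0.25 ± 0.10 against MTAP+ cells, which did not pass (limma, adjusted p = 0.152). The call was lost with the ACTB covariate (0.111) and without inhibitor-treated replicate 1 (0.0501) or 2 (0.0970) or MTAP- replicate 1 (0.0556) or 3 (0.0772). Of the other AHCYL1 probe sets, 200848_at had 10.52, 10.63 and 10.58 in inhibitor-treated, 10.49, 10.70 and 10.20 in MTAP+ and 10.17, 9.50 and 10.22 in MTAP- cells and passed against MTAP- cells at 0.61 ± 0.20 (limma, adjusted p = 0.0406), and 200849_s_at gave 0.28 ± 0.10 (limma, adjusted p = 0.0544). The call of 200848_at was lost in 8 of 17 alternatives, with the replicate block (0.052), with median centring (0.0622), with the ACTB covariate (0.106), and without inhibitor-treated replicate 1 (0.082), 2 (0.103) or 3 (0.0995), MTAP+ replicate 1 (0.0505) or MTAP- replicate 2 (0.0961), where its change was 0.38.

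MTR, methionine synthase, returns homocysteine to methionine. Its probe set 203774_at had 9.21, 9.12 and 9.18 in inhibitor-treated cells, 9.17, 9.14 and 9.03 in MTAP+ cells and 8.84, 9.11 and 8.99 in MTAP- cells. Nothing passed for it or for 226969_at, whose levels lay between 8.06 and 8.52 on the 9 arrays. Under the inhibitor the 2 gave 0.06 (limma, adjusted p = 0.764) and 0.19 ± 0.12 (limma, adjusted p = 0.360).

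**Figure D3:**
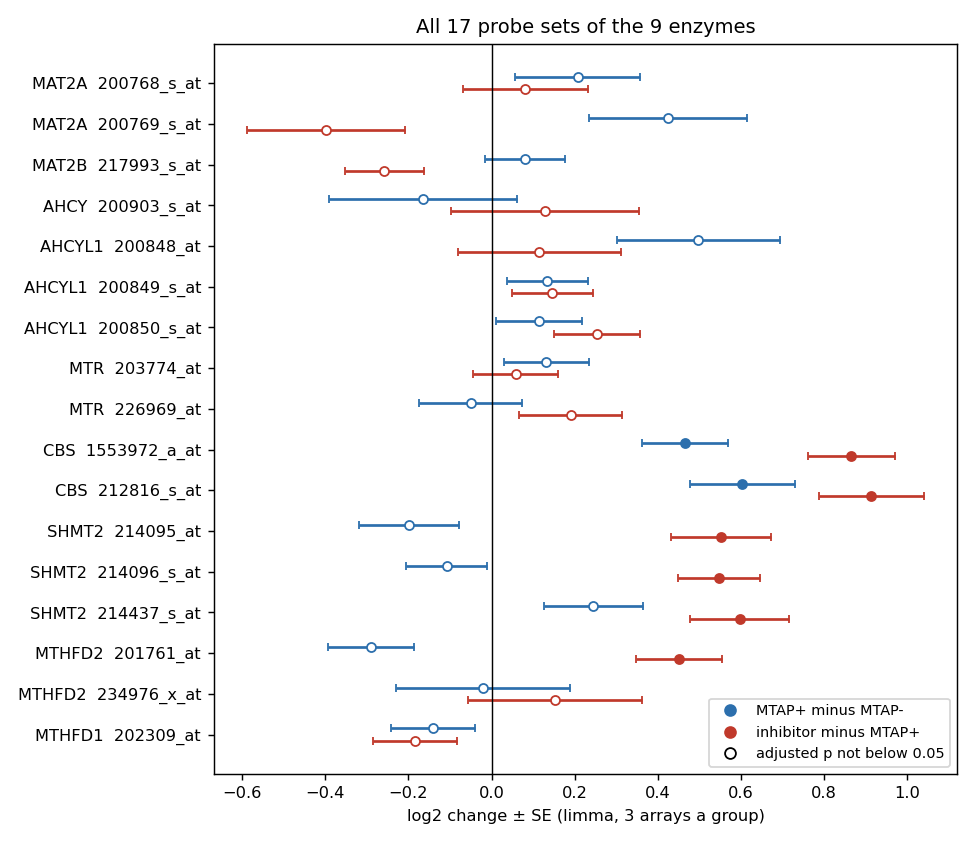
Log2 change of all 17 probe sets of the 9 enzymes for inhibitor-treated minus MTAP+ cells and MTAP+ minus MTAP- cells, 1 point per probe set with its SE, open where the test was not passed. The CBS and SHMT2 probe sets lie above 0 in inhibitor-treated against MTAP+ cells, from 0.55 to 0.91, and the 2 MAT2A probe sets fall on either side of 0, at 0.08 and -0.40.

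Other genes of the same pathways were taken as lists. These lists were chosen with earlier results of these data known, so their counts beside the shares of all genes are description only. Of 14 further methionine cycle and SAM genes, 9 had values, and under the inhibitor 2 rose and none fell (median 0.17, against -0.02 over all genes). The shares over all genes were 4.63 percent higher and 5.95 percent lower. CTH, which completes transsulfuration after CBS, had 8.13, 7.92 and 8.10 in inhibitor-treated cells, 6.96, 6.86 and 6.98 in MTAP+ cells and 7.17, 7.18 and 7.02 in MTAP- cells. Every inhibitor-treated array was above every other array, and the change against MTAP+ cells was 1.12 ± 0.10, or 2.17-fold (limma, adjusted p = 0.00187). CTH passed in all 17 alternatives in which it was tested, and was too dim for those with the percentile filter. Its levels in MTAP+ cells lay close to 6.64, the level that every deposited probe set reached on at least 3 arrays. The size of this fold therefore rests on a dim baseline. SLC25A26, the mitochondrial SAM carrier, had 8.91, 8.83 and 9.04 in inhibitor-treated cells, 8.33, 7.90 and 8.44 in MTAP+ cells and 8.44, 8.34 and 8.42 in MTAP- cells, a 1.63-fold rise against MTAP+ cells (limma, adjusted p = 0.0157; 0.0776 without inhibitor-treated replicate 3).
Serine supplies both CBS and SHMT2. Of 10 genes of serine synthesis and amino acid uptake 9 had values, and 2 rose under the inhibitor (median 0.39), against 4.63 percent of all genes. PHGDH, the first enzyme of serine synthesis, had 10.56, 10.09 and 10.43 in inhibitor-treated cells, 9.80, 9.24 and 9.70 in MTAP+ cells and 9.62, 9.59 and 9.49 in MTAP- cells, and rose 1.72-fold against MTAP+ cells (limma, adjusted p = 0.0205). PSAT1, the next enzyme, had 12.54, 12.30 and 12.44 in inhibitor-treated cells, 11.97, 11.84 and 11.65 in MTAP+ cells and 12.05, 12.09 and 11.99 in MTAP- cells, and rose 1.52-fold (limma, adjusted p = 0.0124). Inhibitor-treated arrays were the highest for both genes. Without inhibitor-treated replicate 1 or 3 neither passed, PHGDH at 0.0725 and 0.0879 and PSAT1 at 0.051 and 0.0614, and PHGDH also missed with the 2 groups alone (0.0537).
Of 20 further folate genes 12 had values. None passed limma's adjusted test under the inhibitor (median -0.16), against 10.6 percent of all genes, while 5 had an unadjusted p below 0.05. With the replicate block 1 was higher and 2 were lower. TYMS, thymidylate synthase, came nearest with -0.42 ± 0.12 (limma, adjusted p = 0.0513) and passed in 8 of 19 alternatives. DLD, a subunit shared by the glycine cleavage system and other complexes, gave -0.09.
Among the brighter genes of the other lists that did not pass, NNMT gave -0.07, ADK 0.31, the amino acid carrier SLC38A2 -0.05 and the carrier SLC7A5 0.27.

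Proliferation markers moved with the same comparison, in a list that was likewise chosen with earlier results of these data known. Of 10 such genes 6 fell and none rose in inhibitor-treated against MTAP+ cells (median -0.68), where 5.95 percent of all genes were lower. They included PCNA, the replication clamp, at -0.70 (limma, adjusted p = 0.00502) and CCNB1, a mitotic cyclin, at -0.84 (limma, adjusted p = 0.0101). The mitotic kinases CDK1, PLK1, BUB1 and AURKA made up the rest, at -0.68, -0.68, -0.68 and -0.41 (limma, adjusted p = 0.0301, 0.0407, 0.0158 and 0.0458). TOP2A and MCM2, both of DNA replication, gave -0.53 and -0.13 and did not pass. PCNA and CCNB1 passed in every alternative, CDK1 and PLK1 each missed in 6, BUB1 in 2 and AURKA in 14 of 19. The mean of the list per array lay between 9.97 and 10.17 in inhibitor-treated cells, 10.49 and 10.90 in MTAP+ cells and 10.64 and 10.69 in MTAP- cells. Their part in the changes of CBS, SHMT2 and MTHFD2 was not tested. The count of 6 went to 2 without inhibitor-treated replicate 3, to 3 without inhibitor-treated replicate 1 or MTAP+ replicate 2, and to 8 with the replicate block.

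Between MTAP+ and MTAP- cells the lists moved in other members. Among the 9 measured methionine cycle and SAM genes 1 rose and 3 fell (median -0.18). The shares over all genes were 9.84 percent higher and 5.31 percent lower. NNMT, which methylates nicotinamide with SAM, was higher in MTAP+ cells at 0.68 ± 0.17 (limma, adjusted p = 0.0289), and ADK, adenosine kinase, was lower at -0.42 ± 0.10 (limma, adjusted p = 0.0197), with MMACHC and MTRR, a pair of vitamin B12 genes, at -0.46 (limma, adjusted p = 0.0363) and -0.39 (limma, adjusted p = 0.0469). All 4 missed with the 2 groups alone (0.0725, 0.062, 0.0878 and 0.087), with the ACTB covariate and without MTAP+ replicate 1 or MTAP- replicate 3. MMACHC and MTRR also missed without any 1 of the inhibitor-treated replicates. Of the 12 measured folate genes 1 fell, GCSH of the glycine cleavage system, at -0.48 ± 0.09 (limma, adjusted p = 0.00853). That count of 1 was near the share of all genes that were lower. The median change of these 12 genes was -0.29, against 0.02 over all genes, and 7 had an unadjusted limma p below 0.05. GCSH missed with the ACTB covariate (0.0532) and with the mean of its probe sets, where the change was -0.21 (adjusted p = 0.151). The folate genes lower were 3 with median centring, quantile normalization or the 40th percentile filter, and 3 lower with 1 higher under the replicate block. Of the serine genes none passed limma's adjusted test (median 0.14), with 3 at an unadjusted p below 0.05, and 2 were higher with the replicate block. Not past the threshold were PEMT, which uses SAM to make phosphatidylcholine, at -0.18, SLC25A26 at -0.18, TYMS at -0.31, DLD at -0.28, PSAT1 at -0.22, SLC38A2 at 0.34, PCNA at -0.12 and CCNB1 at 0.06. No proliferation marker passed limma's adjusted test between MTAP+ and MTAP- cells, and 0 of 10 had an unadjusted p below 0.05.
Between inhibitor-treated MTAP+ and MTAP- cells, 2 of 12 measured folate genes were higher and 6 lower (median -0.41). Of 9 measured serine genes 5 were higher and none lower (median 0.51). The shares over all genes were 17.3 percent higher and 14.9 percent lower. ALDH1L1, a cytosolic folate dehydrogenase, rose by 1.08 ± 0.18 (limma, adjusted p = 0.00186) and TYMS changed by -0.72 ± 0.12 (limma, adjusted p = 0.00182), both in every alternative run. Also higher was AMT of the glycine cleavage system, at 0.70, and also lower were MTFMT, which formylates the initiator tRNA, at -0.59, GGH, a folylpolyglutamate hydrolase, at -0.53, and SLC25A32, the mitochondrial folate carrier, at -0.52. AMT in both other groups and MTFMT in inhibitor-treated cells averaged under 6.64, so these 2 changes rest on dim levels. The authors' filter asked for 6.64 on at least 3 arrays. AMT may therefore be in the data only through its inhibitor-treated arrays, and MTFMT only through the other groups. Their changes are not independent of that filter, and no alternative lifted it. Among the methionine cycle genes CTH (0.93), NNMT (0.60) and SLC25A26 (0.53) were higher and MMACHC (-0.65) lower, with ADK (-0.12) and MTRR (-0.23) not past the threshold. That is 4 of 9, against 32.2 percent of all genes, so this count was not far from the background. The serine genes higher than in MTAP- cells were PHGDH (0.79), SLC3A2 (0.56), SLC1A4 (0.52), PSPH (0.51) and PSAT1 (0.38). FOLR1, DLD, SLC38A2 and SLC7A5 did not pass, at 0.48, -0.37, 0.29 and 0.40. Of the proliferation markers 7 fell and none rose (median -0.67), with MKI67 at -0.94, CDK1 at -0.88, PCNA at -0.82, CCNB1 at -0.78, CCNA2 at -0.69 and BUB1 at -0.66, while TOP2A (-0.34) and MCM2 (0.05) did not pass. CTH, MMACHC, ALDH1L1, TYMS, AMT, GGH, SLC25A32, PHGDH, MKI67, CDK1, PCNA and CCNB1 passed in every alternative run. Each of the other named genes missed in at least 1. CTH, MMACHC and AMT were tested in 17 alternatives each, as they were too dim for the percentile filter. MMACHC averaged 6.60 in inhibitor-treated cells, so its change also rests on dim levels and is not independent of the authors' filter. The 5 serine genes went to 1 without inhibitor-treated replicate 1, without MTAP- replicate 3 or with the ACTB covariate.

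**Figure D4:**
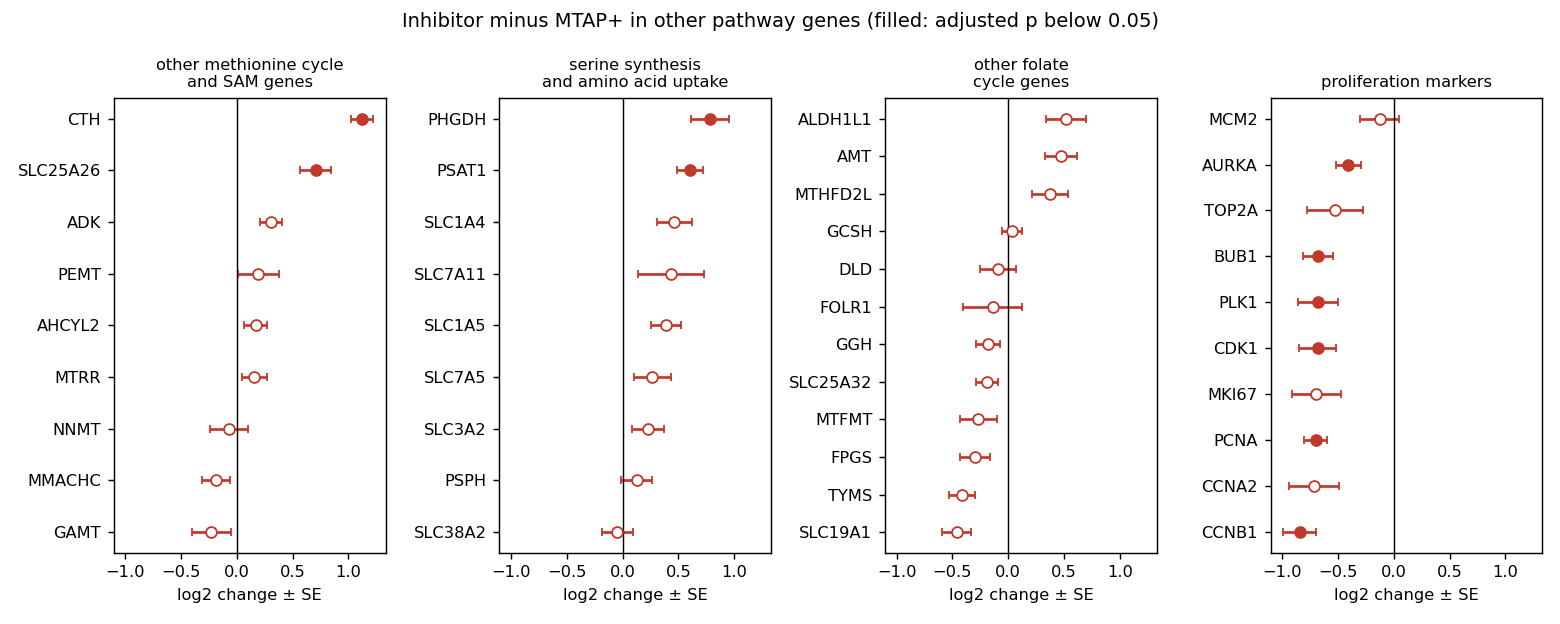
Log2 change of each measured gene of the 4 lists for inhibitor-treated minus MTAP+ cells, 1 point per gene with its SE, filled where adjusted p was below 0.05. The list medians are 0.17 for the further methionine cycle genes, -0.16 for the further folate genes, 0.39 for the serine genes and -0.68 for the proliferation markers.

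Across the 9 arrays, the genes whose levels followed those of CBS most closely were MKRN1 and AARS1 (Pearson r = 0.986 each), RNF144A (0.982), KLF11 and DSE (0.981 each). AARS1 is the cytosolic alanyl-tRNA synthetase and MKRN1 a ubiquitin ligase. AARS1 averaged 11.12 ± 0.09 in inhibitor-treated cells, 10.48 ± 0.10 in MTAP+ cells and 10.30 ± 0.12 in MTAP- cells (SD, n = 3 each). The arrays fall into 3 groups, so these values describe a shared order of groups and were taken as the highest among all genes.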

How the data were processed

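The log2 values are those the authors deposited, made by RMA per the submitters' processing notes, with the version not given in the sources used here. Of 54675 probe sets 37201 had no values in the deposited table, and every one with values reached a log2 level of 6.64 (100 on the linear scale) on at least 3 arrays; this filter was the authors' and none was added. Control probe sets (8) were left out. Genes were named from the platform annotation where a probe set had 1 symbol (15491 probe sets; 841 had several and 1142 none). A gene was represented by its probe set of highest mean. The fit (limma 3.58.1, R 4.3.3) used all 9 arrays in 3 groups without a block, with adjusted p-values over 17466 probe sets. Its code was run on simulated data with independent noise on each array, which cannot speak to replicates that deviate together. The p-values weigh each difference against the spread between these arrays only. The named genes were all members, in each list the called genes of each comparison (at most 6 by size) and the 2 uncalled genes of highest mean, MTAP, and the 5 genes most correlated with the member of the largest moderated F. Members and lists were chosen with earlier results of these data known. Same-numbered replicates deviated together in inhibitor-treated and MTAP+ arrays (r = 0.70, 0.59 and 0.32 over probe sets). They also did in MTAP+ and MTAP- arrays (0.28, 0.22 and 0.25), but not in inhibitor-treated and MTAP- arrays (0.20, 0.01 and -0.01). Whether the numbers pair the samples was not tested, and what they stand for is not stated. The fit without a block ignores any such pairing. The alternatives were the replicate block, median centring, a further quantile normalization, a filter at the 40th percentile alone or with 1 probe set a gene, the mean of a gene's probe sets, array weights, eBayes with trend and robust, the 2 groups alone, the ACTB difference as a covariate, and leaving out each of the 9 arrays. Promoter sequences are from RefSeq (GRCh38.p14), with 9 of 10 members matched.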

Additional observations from a re-analysis of the deposited data

How the results depend on the processing

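The 3 arrays a group limit the precision, with a median SE of 0.14 on the log2 scale over all probe sets. The replicate block left the enzyme counts at 3 for inhibitor-treated against MTAP+ cells, 1 for MTAP+ against MTAP- cells and 4 for inhibitor-treated against MTAP- cells, and moved the probe set counts to 2726, 3779 and 6500, against 1805, 2586 and 5361 without it. It changed no other call among the enzymes' representative probe sets. The count of 1 enzyme for MTAP+ against MTAP- cells was 2 with median centring, array weights or trend and robust, where MTHFD2 also passed (adjusted p = 0.0437, 0.0398 and 0.0491), and 0 with the 2 groups alone or the ACTB covariate. Leaving out 1 array gave 0 to 1. For inhibitor-treated against MTAP+ cells leaving out 1 array gave 1 to 3, and for inhibitor-treated against MTAP- cells 2 to 4, with 2 under the ACTB covariate. Testing 1 probe set a gene above the 40th percentile gave 1042, 1337 and 2614 probe sets in the order above, as fewer were tested, and the mean of a gene's probe sets 3282 in the last comparison. For MTAP+ against MTAP- cells the 2 groups alone gave 1385 and the ACTB covariate 851. Leaving out 1 array gave 452 to 1836, 1458 to 2809 and 3562 to 6032. The share of higher calls for MTAP+ against MTAP- cells, 67.7 percent, was 50.1 percent with median centring and 50.3 percent with quantile normalization. Signs turned only for changes that did not pass. For inhibitor-treated against MTAP+ cells, MAT2A gave -0.16 with the mean of its probe sets and -0.027 with array weights. Leaving out 1 array there gave -0.069 to 0.20 for MAT2A, -0.10 to 0.31 for AHCY, -0.017 to 0.23 for AHCYL1 200848_at, -0.056 to 0.33 for MTHFD2 234976_x_at, -0.24 to 0.13 for NNMT, -0.24 to 0.063 for DLD and -0.16 to 0.022 for SLC38A2. For inhibitor-treated against MTAP- cells, AHCY gave 0.054 with the ACTB covariate. MAT2A 200769_s_at gave -0.033 with centring, -0.030 with quantile normalization, -0.067 with array weights and -0.15 with the covariate. MTHFD2 234976_x_at gave -0.025 with quantile normalization and -0.038 with the covariate, and MCM2 -0.0079 with centring and -0.042 with array weights. Leaving out 1 array there gave -0.17 to 0.15 for AHCY, -0.20 to 0.20 for MAT2A 200769_s_at and -0.15 to 0.16 for MCM2. For MTAP+ against MTAP- cells, MTR 226969_at gave 0.063 with array weights and 0.056 with the covariate, PSAT1 0.11 with the mean of its probe sets, and CCNB1 -0.016 with centring and -0.042 with array weights. Leaving out 1 array there gave -0.32 to 0.066 for AHCY, -0.18 to 0.020 for MTR 226969_at, -0.20 to 0.19 for MTHFD2 234976_x_at, -0.31 to 0.030 for PEMT and -0.0060 to 0.19 for CCNB1. The cause of these turns was not tested.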

Other observations

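Within each array, MAT2A minus MAT2B was 0.22, -0.04 and 0.25 in inhibitor-treated cells, -0.08, -0.59 and 0.09 in MTAP+ cells and -0.17, -0.59 and -0.20 in MTAP- cells. These values compare 2 probe sets and were chosen after they were seen.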
